A study of Danio rerio with 6 samples.

Results

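The miR-17-92 miRNAs were followed in whole zebrafish embryos raised with or without ethanol. They are 10 of the 243 zebrafish miRNA probes on the array: dre-miR-17a, dre-miR-18a, dre-miR-18b, dre-miR-18b*, dre-miR-19a, dre-miR-19b, dre-miR-20a, dre-miR-20b, dre-miR-92a and dre-miR-92b. The prefix dre- stands for Danio rerio and is left out from here on. Each was found by a zebrafish name within the probe's name in the scanner files, and all 10 names were found. The members were chosen by name and not by a measured value, although earlier results of these data were known.

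Embryos of the control group stayed in system water. The 2 exposed groups were kept in 1% or 1.5% ethanol from 4 to 24 h after fertilisation, and all groups were collected at 24 h. Each group had 2 biological replicates, each read on 1 array after labelling of 2 µg of total RNA with the dye Cy3. The sample was total RNA of whole embryos, with about 200 embryos per dish, so fewer cells that carry a miRNA and less miRNA per cell cannot be told apart. No genotype or strain is given in the labels.

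The miR-17-92 miRNAs are cut from shared transcripts, called polycistrons, that carry several miRNA hairpins in a row. In vertebrates these transcripts are known for promoting cell proliferation and survival, and in mammals they are induced by MYC and limit the pro-apoptotic factor Bim. Their products fall into 4 seed families, named for miR-17, miR-18, miR-19 and miR-92, and a seed is the short 5′ stretch of a miRNA that pairs with its targets. miR-20a and miR-20b have the miR-17 seed. A star marks the strand of a hairpin that is usually the less abundant.

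By the order of hairpins in the RefSeq annotation of the zebrafish assembly GRCz12tu, 6 hairpins lie next to each other in a first cluster: mir-17a-1, mir-18a, mir-19a, mir-20a, mir-19b and mir-92a-1. A second cluster has 3 hairpins, mir-17a-2, mir-18b and mir-92a-2. The hairpin mir-20b neighbours mir-18c, mir-19c and mir-363 in a cluster of 4, and mir-92b had no neighbour from these families within 10000 bases. The probes for miR-17a and miR-92a each answer to 2 hairpins, so they cannot say which cluster a signal came from. The arrays name their probes and give no coordinates, so none are printed, and probe sequences were not used here.

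Probes for some products of a transcript gave signal above background, and probes for others did not. An array's limit was the 95th percentile of its empty and blank spots, and a probe was called above it when at least as many of its usable spots as not lay over it. The limit ran from 255.7 to 451.1 intensity units over the 6 arrays. On all 6 arrays, 4 of the 10 members lay above the limit: miR-18a, miR-18b*, miR-19a and miR-92b. miR-92a did so on 2 arrays, and miR-17a, miR-18b, miR-19b, miR-20a and miR-20b on none. Over all 243 zebrafish probes, 159 were above the limit on no array and 28 (11.5%) on all 6 arrays. Of the 835 probes named only for other species, 13.2% were above on all 6 arrays, a share at least as high as among the zebrafish probes. Against the 99th percentile in place of the 95th, 3 members remained above on all arrays, and miR-18a was above on none.

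**Figure D1:**
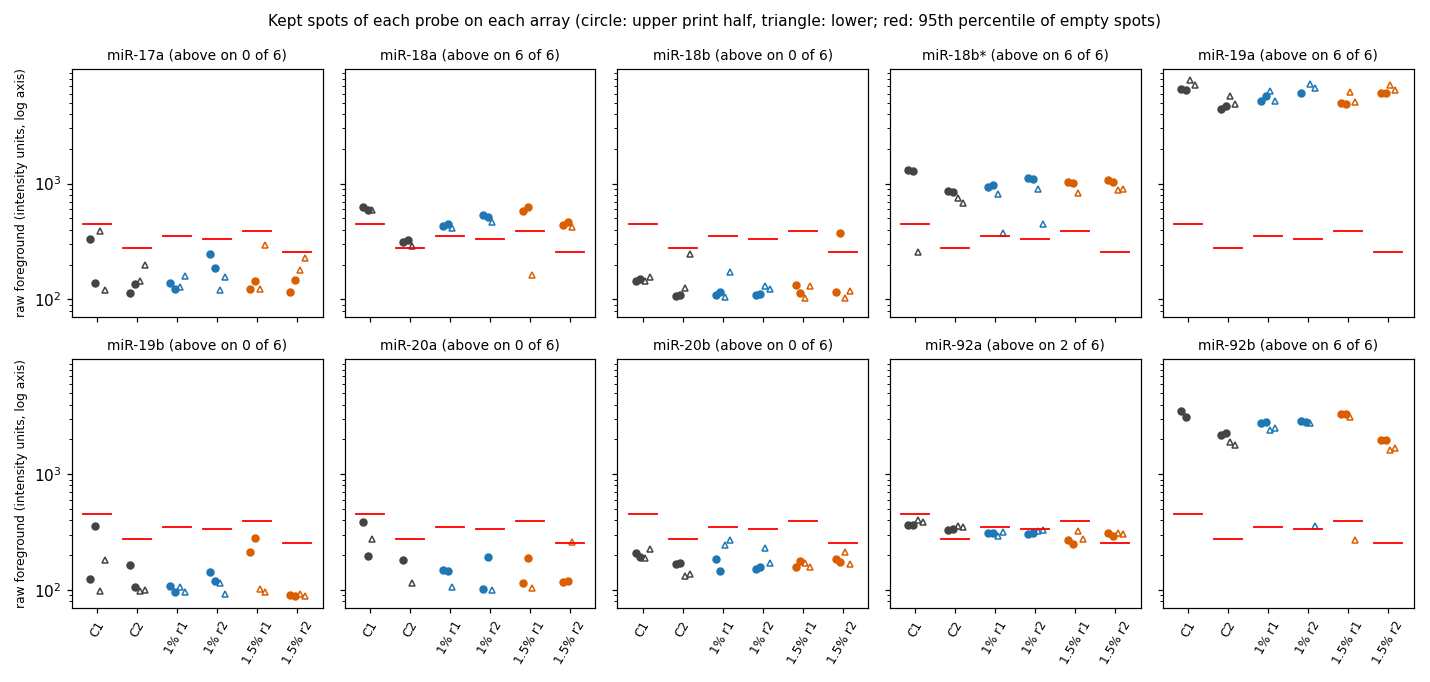
Raw foreground of every usable spot (log axis, intensity units) for the 10 probes on the 6 arrays, control (grey, C1 and C2), 1% ethanol (blue) and 1.5% ethanol (orange). Circles are the upper pair of printed spots, triangles the lower pair, and the red line is the 95th percentile of empty spots on that array. Spots of miR-19a run from 4413 to 7874, above the limit throughout, while those of miR-19b run from 88 to 358, under it.

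miR-19a, known in mouse lymphoma as a strongly oncogenic product of the cluster, gave bright spots that lay close together. Its usable spots read 6476 to 7874 on control replicate 1 and 4413 to 5707 on control replicate 2. At 1% ethanol they read 5185 to 6254 and 6094 to 7291 on replicates 1 and 2. At 1.5% ethanol they read 4866 to 6232 and 6109 to 7083. The raw ranges of all 3 groups overlapped, and within an array the brightest spot was at most 1.29 times the dimmest.

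After background correction and quantile normalisation the log2 intensity of miR-19a was 12.23 and 12.54 in the control arrays, 12.45 and 12.78 at 1%, and 12.07 and 12.67 at 1.5% ethanol. The lowest array was 1 of the 1.5% arrays and the highest 1 of the 1% arrays, and all 3 groups overlapped. The control mean was 12.38 ± 0.22 (SD, n = 2), beside 12.62 ± 0.23 at 1% and 12.37 ± 0.43 at 1.5%. The log2 difference from control was 0.23 at 1% ethanol (SE 0.26, limma adjusted p = 0.874) and -0.01 at 1.5% (SE 0.26, adjusted p = 0.979). Neither passed the threshold of 0.05 after Benjamini-Hochberg adjustment over all 243 probes.

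miR-19b, which has the same seed and is cut from the same transcript as miR-19a, had 0 of its 24 spots over the limit. Its log2 values lay between 6.58 and 6.88 on the 6 arrays. Both 1.5% arrays lay below both controls, at 6.72 and 6.58 beside 6.88 and 6.80, but at values where the probe was not above the empty spots, so the difference of -0.18 (adjusted p = 0.964) has no fixed size. Brightness differs between probes for reasons other than abundance, so the levels of miR-19a and miR-19b are not set against each other.

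In the miR-18 family, miR-18a lay above the limit on all arrays and by a small margin. On control replicate 1 its spots read 629, 594 and 592, and on control replicate 2 they read 311, 326 and 291. At 1% ethanol they were 429, 446 and 411 on replicate 1 and 540, 516 and 465 on replicate 2. At 1.5% they were 581, 623 and 162 on replicate 1 and 442, 467 and 424 on replicate 2. The fourth spot had been marked to be ignored on all 6 arrays. The control arrays spanned the range of nearly all spots of both ethanol groups, and the spot at 162 stood apart.

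The normalised log2 values of miR-18a were 8.89 and 8.46 in control, 8.77 and 8.99 at 1%, and 8.38 and 8.93 at 1.5% ethanol, with overlap between all groups. The differences from control were 0.20 at 1% (SE 0.26, limma adjusted p = 0.916) and -0.02 at 1.5% ethanol (SE 0.26, adjusted p = 0.977). With only the upper pair of spots, which leaves out the spot at 162, the 1.5% difference was 0.28. This setting and the other spot subsets were chosen after the data were seen.

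Of the zebrafish probes for the hairpin mir-18b, the one for the star strand gave signal. miR-18b* was above the limit on all 6 arrays. The probe for miR-18b, the strand without a star, had 1 of 24 spots over it and log2 values of 6.89 to 7.34. A probe headed gga-miR-18b, named only for other species, was above the limit on 5 of the arrays. Probes differ in brightness for reasons other than abundance, so the strands of mir-18b are not set against each other. The upper pair of miR-18b* spots read 1301 and 1274 on control replicate 1 and 859 and 855 on control replicate 2. At 1% ethanol the pair read 932 and 965, then 1124 and 1098, and at 1.5% ethanol it read 1023 and 1016, then 1079 and 1038. In these raw values all ethanol arrays fell between the 2 controls. After normalisation the pair averaged 9.99 and 9.92 in control, 10.00 and 10.04 at 1%, and 9.85 and 10.16 at 1.5% ethanol. Both 1% arrays then lay just above both controls, and the 1.5% arrays lay on either side of them. With usable spots averaged, both 1% arrays lay above both controls for 20.6% of all probes.

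The lower pair of miR-18b* spots was more scattered. It had 1 usable spot at 255 on control replicate 1, below that array's limit, and 745 and 683 on control replicate 2. It read 814 and 372, then 898 and 445, at 1% ethanol. At 1.5% ethanol the usable spots read 826, then 873 and 904. The control spot at 255 and the 1% spots at 372 and 445 were the low ones.

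Averaged over usable spots, the log2 value of miR-18b* was 9.19 and 9.79 in control, 9.54 and 9.67 at 1%, and 9.74 and 10.00 at 1.5% ethanol. Both 1.5% arrays lay above both 1% arrays, and control replicate 2 lay above both 1% arrays and 1 of the 1.5% arrays. The difference from control was 0.12 at 1% (SE 0.24, limma adjusted p = 0.919) and 0.38 at 1.5% (SE 0.24, adjusted p = 0.964), and it was 0.26 between the doses (adjusted p = 0.869). The 1.5% value was 0.05 with the upper pair of spots alone, 1.06 with the lower pair alone and 0.02 with the median over spots. Without control replicate 1, the array of the spot at 255, it was 0.08.

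In the authors' deposited table, which sets each array against its Ncode_Control spots, miR-18b* was at 1.89 and 1.99 in control, 2.22 and 2.54 at 1%, and 2.42 and 2.93 at 1.5% ethanol on a log2 scale. There every ethanol array lay above both controls. Of the 9 members with all 6 values in the authors' deposited table, both 1% arrays lay above both controls for 5 and below for 0, and both 1.5% arrays above for 1, miR-18b*, and below for 0. The same table placed both 1% arrays above both controls for 39.4% of the 226 probes with all 6 values, and both 1.5% arrays for 36.7%, while the shares placed below were 3.98% and 1.77%. The median difference over all probes of the authors' deposited table was 0.27 at 1% and 0.32 at 1.5% ethanol. Relative to these, miR-18b* differed by 0.17 and 0.42 in the authors' deposited table. The mean log2 of the Ncode_Control spots was 7.66 and 7.62 on the control arrays, 7.27 and 7.17 at 1%, and 7.47 and 6.99 at 1.5% ethanol, and its part in the result was not tested.

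In the miR-17 family, whose members repress cell-cycle inhibitors in mammals, no probe exceeded the empty-spot limit on any of the arrays. miR-17a had 0 of 24 spots over the limit, with spots of 114 to 392 and log2 values of 7.11 to 7.40. miR-20a had 1 of 17 usable spots over it, with spots of 101 to 386. miR-20b had 0 of 24, with spots of 133 to 268. These probes missed the limit, which does not show that their miRNAs were absent. The medians of the empty and blank spots were 98 to 127 over the arrays. A difference between groups at such values has no fixed size.

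Within those limits miR-20a was at log2 values of 7.66 and 7.23 in control, 7.09 and 7.07 at 1%, and 7.02 and 7.36 at 1.5% ethanol. Both 1% arrays lay below both controls, with a difference of -0.36 (SE 0.22, limma adjusted p = 0.874). miR-20b went the other way at 1%, at 7.74 and 7.52 beside 7.41 and 7.32, with a difference of 0.27 (SE 0.18, adjusted p = 0.874). These were the 2 members whose 1% arrays did not overlap the controls, 1 higher and 1 lower. Over all probes both 1% arrays were higher for 20.6% and lower for 16.9%.

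In the miR-92 family, miR-92b was above the limit on all 6 arrays, although its hairpin stands apart from the clusters. Its usable spots read 3495 and 3133 on control replicate 1, where both lower spots had been marked to be ignored, and 2188, 2270, 1901 and 1790 on control replicate 2. At 1% ethanol they read 2765, 2846, 2428 and 2513 on replicate 1 and 2874, 2852, 2749 and 357 on replicate 2. At 1.5% ethanol they read 3336, 3325, 3146 and 270 on replicate 1 and 1984, 1965, 1606 and 1677 on replicate 2. The spots at 357 and 270 lay far below the other 3 of their arrays, and without them the raw ranges of the 3 groups overlapped. After normalisation the upper pair of miR-92b spots averaged 11.18 and 11.32 in control, 11.54 and 11.60 at 1%, and 11.52 and 11.16 at 1.5% ethanol. For that pair both 1% arrays lay above both controls, while the 1.5% arrays overlapped the controls and lay below both 1% arrays. With usable spots averaged, both 1% arrays lay above both controls for 20.6% of all probes. Both 1.5% arrays lay below both 1% arrays for 16.5%. Neither share was counted for the upper pair.

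The averaged log2 values of miR-92b were 11.18 and 11.20 in control, 11.46 and 10.75 at 1%, and 10.61 and 10.98 at 1.5% ethanol. Both 1.5% arrays lay below both controls, as for 17.3% of all probes, and the 1% arrays lay on either side of them. The difference from control was -0.09 at 1% (SE 0.27, limma adjusted p = 0.941) and -0.40 at 1.5% ethanol (SE 0.27, adjusted p = 0.964). With the upper pair of spots alone the values were 0.32 at 1% and 0.09 at 1.5%, and with the median over spots 0.31 and 0.05. The direction of the miR-92b difference turned with the spots used.

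miR-92a, the last hairpin product of the first 2 clusters and a known brake on blood vessel growth in mouse, sat at the limit. Its brightest spot was at most 1.3 times its dimmest on each array, with medians of 375.5 and 344.5 in control, 311 and 319.5 at 1%, and 272 and 306.5 at 1.5% ethanol. It was above the limit on control replicate 2 and on 1.5% ethanol replicate 2, the arrays with the lowest limits, 276.5 and 255.7. The raw medians of both ethanol groups all lay below both controls, and the share of all probes with this order was not counted. Raw values also follow the brightness of an array. The median foreground of all zebrafish spots was 226 and 166 in control, 165 and 172 at 1%, and 184.5 and 169 at 1.5% ethanol. After normalisation the log2 values were 8.23 and 8.63 in control, 8.36 and 8.30 at 1%, and 7.98 and 8.34 at 1.5% ethanol, and the groups overlapped. The differences were -0.10 at 1% (limma adjusted p = 0.919) and -0.27 at 1.5% (adjusted p = 0.964).

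**Figure D2:**
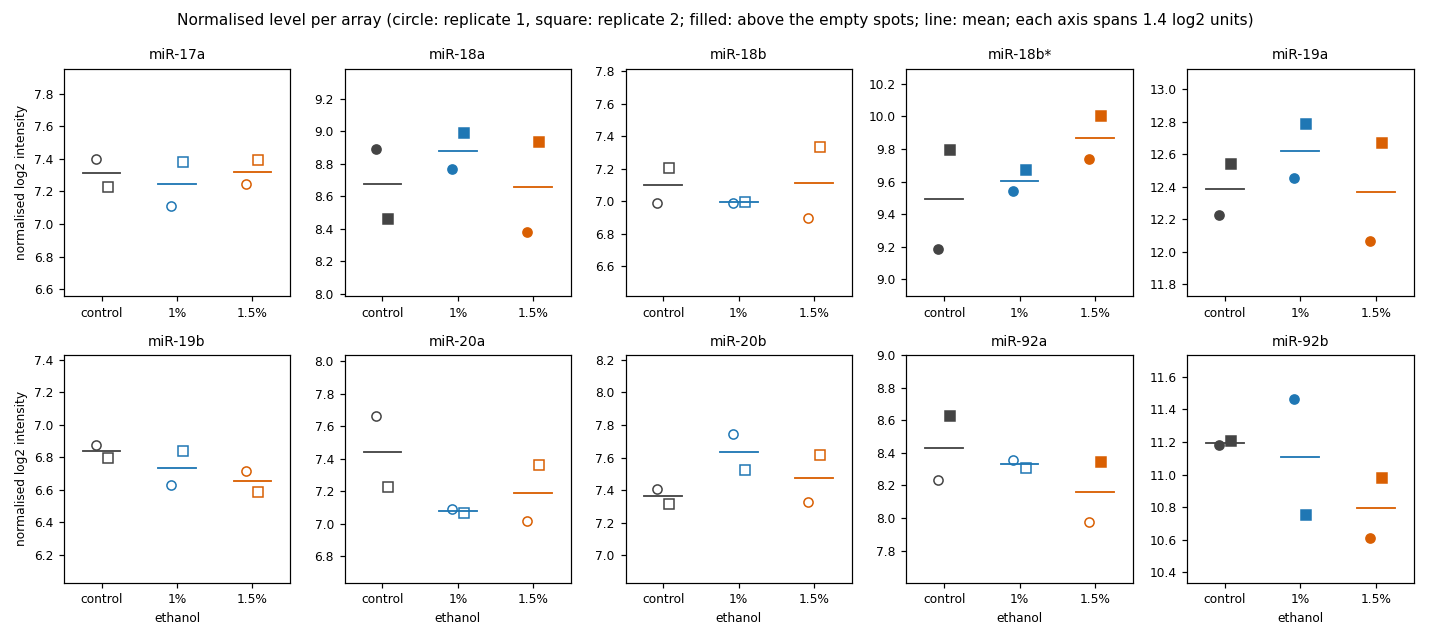
Normalised log2 intensity of each member by group, with circles for replicate 1, squares for replicate 2, lines for the mean of 2 arrays, and filled symbols where the array was above the empty spots. All panels cover the same number of log2 units, and levels are not compared between panels. The 2 arrays of a group often lie as far apart as the groups, as for miR-18a, at 8.38 and 8.93 with 1.5% ethanol.

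Of the 10 members, none passed in any comparison with limma at an adjusted p under 0.05. At 1% ethanol against control this was 0 of 10 higher and 0 of 10 lower, with adjusted p from 0.874 to 0.941, beside 0.412% of all probes (1 of 243). At an unadjusted p under 0.05 it was 0 of 10, beside 6.17% of all probes. At 1.5% ethanol it was 0 of 10 in either direction (adjusted p from 0.964 to 0.979), beside 0% of all probes, and 0 of 10 unadjusted, beside 4.94%. Between the doses it was 0 of 10 (adjusted p from 0.869 to 0.911), again beside 0% of all probes, and 0 of 10 unadjusted, beside 7.41%. Both doses together against control gave 0 of 10 (0.412% of all probes), as did the test for any difference among the groups (0.412%). Their unadjusted counts were 0 of 10 each, beside 3.29% and 5.76%.

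After quantile normalisation the members did not share a direction. At 1% ethanol 4 differences were above 0 and 6 below, with a median of -0.08 beside 0.00 for all 243 probes. At 1.5% ethanol it was again 4 above and 6 below, with a median of -0.02 beside 0.01. Between the doses it was 4 above and 6 below, with a median of -0.12 beside -0.05. Both comparisons with water share the same control arrays. The 4 members above the limit on all arrays had 3 values above 0 and 1 below at 1%, and 1 above and 3 below at 1.5% ethanol. Those below at 1.5% included miR-18a at -0.02 and miR-19a at -0.01 (SE 0.26 each), so their signs carry little. The signs also changed with the scaling, as given further below.

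For all 10 members the largest of the 3 differences between group means was smaller than the largest gap between the 2 arrays of a group, as it was for 76.5% of all 243 probes. miR-19a is an example, with a largest group difference of 0.25 and a largest replicate gap of 0.60, and miR-92b another, with 0.40 and 0.71. Arrays in 1.5% ethanol did not overlap the controls for 2 members, miR-19b and miR-92b, both lower, and for 0 higher. The shares over all probes were 17.3% lower and 11.5% higher. Between the doses the arrays of miR-18b* alone did not overlap, with 1.5% above 1% ethanol, beside 15.2% of all probes.

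**Figure D3:**
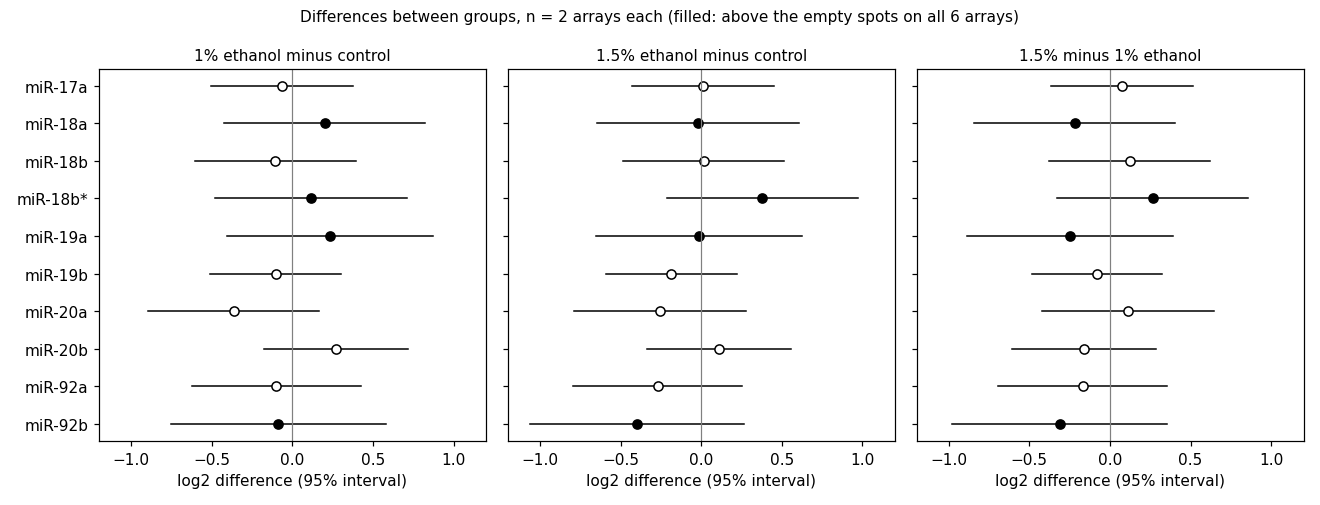
Log2 differences between groups with 95% intervals from the limma model (n = 2 arrays per group). Filled points are members above the empty spots on all 6 arrays. Every interval drawn crosses 0, and that of miR-92b at 1.5% ethanol reaches from -1.06 to 0.27.

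The intervals show what size of change these arrays leave possible. For miR-19a the 95% interval of the difference from control ran from -0.41 to 0.87 at 1% and from -0.65 to 0.62 at 1.5% ethanol. For miR-18a it ran from -0.43 to 0.82 and from -0.64 to 0.61. For miR-18b* it ran from -0.48 to 0.71 and from -0.21 to 0.97, and for miR-92b from -0.75 to 0.58 and from -1.06 to 0.27. A change of 1 log2 unit thus lay outside all of these but the lower end for miR-92b at 1.5% ethanol, under this model and for the values averaged over spots. A missed threshold does not show that the groups were alike.

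Products of the 6-hairpin cluster were also set side by side, since their hairpins are neighbours and such hairpins are usually transcribed together. At 1% ethanol the log2 differences were -0.07 for miR-17a, 0.20 for miR-18a, 0.23 for miR-19a, -0.36 for miR-20a, -0.10 for miR-19b and -0.10 for miR-92a. At 1.5% ethanol they were 0.01, -0.02, -0.01, -0.25, -0.18 and -0.27 in the same order. Of the 6, only miR-18a and miR-19a exceeded the empty-spot limit on all arrays. At that limit 2 of the cluster's 6 hairpins had a probe with signal on all arrays. Against the 99th percentile miR-18a was above on no array, which leaves miR-19a alone. Probe sequences were not used, so signal from miRNAs of the same seed family in other clusters cannot be told apart. At each dose the gap between the values of miR-18a and miR-19a was smaller than the SE of either value, 0.26. How many other pairs of probes lie this close was not counted, so no likeness of cluster mates is read from it. For the 3-hairpin cluster, miR-18b* and miR-18b stood at 0.12 and -0.11 at 1% and at 0.38 and 0.02 at 1.5% ethanol.

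The arrays lay on 3 slides, as inferred from experiment names in the scanner files, and each slide held arrays of 2 groups. On slide 1, 1% ethanol replicate 1 minus control replicate 1 was 0.23 for miR-19a, -0.13 for miR-18a, 0.36 for miR-18b* and 0.28 for miR-92b. On slide 2, 1.5% ethanol replicate 1 minus control replicate 2 was -0.47, -0.08, -0.06 and -0.60 in the same order. On slide 3, 1.5% minus 1% ethanol, both replicate 2, was -0.11, -0.05, 0.33 and 0.23. Each is a difference of 2 arrays with no replicate. With slide as a block in the limma model, the differences from control were 0.03, -0.09, 0.11 and -0.09 at 1% ethanol in the same order. At 1.5% ethanol they were -0.28, -0.11, 0.19 and -0.23. With this block 0 of 10 members passed. The SE of each of these differences was then 0.43, beside 0.24 to 0.27 without the block, so that count says little. On slide 2, 49 of the 243 probes had a larger difference in size than miR-19a and 29 a larger one than miR-92b.

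**Figure D4:**
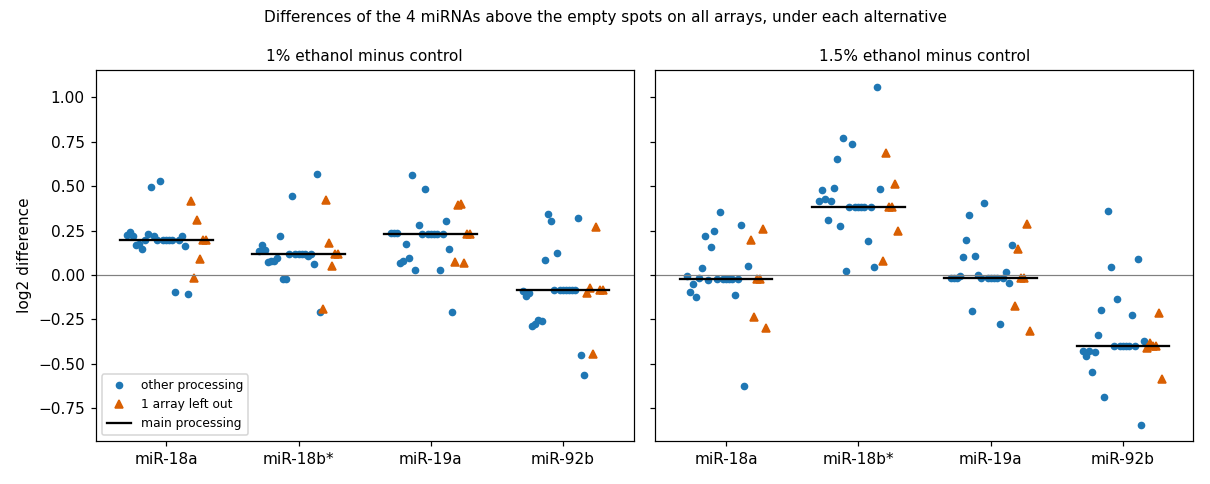
Log2 differences from control of the 4 miRNAs above the empty spots on all arrays, under the main processing (black line), under other processing choices (blue) and with 1 array left out (orange). At 1.5% ethanol miR-18b* ran from 0.02 to 1.06 over the other processing choices and miR-92b from -0.84 to 0.36, while miR-18a and miR-19a lay on both sides of 0.

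Across the 6 arrays, the zebrafish probes most like each of the 4 were sought among the other 83 that were above the limit on at least 1 array, by Pearson's r, as a description. miR-153c (r = 0.923) and miR-460-5p (0.802) were most like miR-18a. miR-27c* (0.925) and ZF_miR_24 (0.919) were most like miR-19a, let-7e (0.909) and miR-732 (0.807) most like miR-18b*, and miR-30e (0.906) and miR-124 (0.893) most like miR-92b. miR-460-5p, miR-732 and miR-124 were above the limit on 1 array and ZF_miR_24 on 2. All values rest on 6 arrays that share the same normalisation. Cluster mates miR-18a and miR-19a had r = 0.586 with each other, and no pair among the 4 was among the most alike.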

How the data were processed

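Per the labels' protocols, total RNA with an integrity number above 7 was labelled with Cy3 and hybridised to 1-colour arrays. Per the file headers, the scanner files hold raw foreground and background intensity of each spot, without background subtraction. The authors' deposited table holds log2 values: taking the mean log2 of a probe's usable spots of intensity 100 or more, less the same mean of the Ncode_Control spots, gave 1438 of its 1440 values within 0.001. Its column medians were 0.24 and -0.20 (control), 0.22 and 0.35 (1%), and 0.12 and 0.48 (1.5% ethanol).

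Intensities were corrected by normexp with an offset of 50, spots marked to be ignored (4.64% to 11.7% of 5040 per array) were dropped, log2 values were quantile normalised over the miRNA spots, and the spots of a probe (4 printed) were averaged. limma 3.58.1 in R 4.3.3 was fitted with 3 groups on all 6 arrays over 243 probes, with two-sided p-values adjusted by the Benjamini-Hochberg method (3 residual and 3.15 prior degrees of freedom). The model was tested on simulated data whose planted changes were larger than the difference of any member here. That test says nothing about smaller changes. The number of arrays limits the precision. All 10 members are named, the related probes only by range and count. The members and lists were chosen with earlier results of these data known. Permuting arrays between groups of 2 could reach no p below 0.333, so that test was not run. Alternatives covered background, scaling, spots, filter, blocks and each array left out.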

Additional observations from a re-analysis of the deposited data

How the results depend on the processing

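In each comparison 0 members passed under the alternatives run, which tested all 10, or 5 of them among 84 probes with the filter on dim probes (27 for each comparison of 2 groups, 26 for both doses together and for any difference). The lowest adjusted p of a member in limma was 0.774 at 1%, 0.597 at 1.5%, 0.395 between the doses, 0.624 for both doses and 0.608 for any difference. Over all 243 probes the calls ran from 0 to 3 at 1% (1 as reported), 0 to 2 at 1.5% (0), 0 to 4 between the doses (0), 0 to 2 for both doses (1) and 0 to 6 for any difference (1). Scaling moved the all-probe median: the authors' deposited table to 0.27 at 1%, 0.32 at 1.5% and 0.30 for both doses, Ncode_Control scaling to 0.21 at 1.5% and 0.16 for both doses, and scaling to empty spots to -0.21 at 1% and 0.21 between the doses. Without normalisation it was -0.14 at 1.5% and -0.24 between the doses, and with 75th percentile scaling -0.14 between the doses.

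Single members changed sign, none past the threshold. Those counted here are of the 4 members above the empty spots on all arrays, and the other members also changed sign under some alternatives. With all arrays kept, 41 values of the 4 members did so. Of these, 31 also turned relative to the median of all probes, for which the cause was not tested. The other 10 did not: miR-18a, miR-18b* and miR-19a at 1% scaled to empty spots, miR-18b* at 1% with ignored spots kept, miR-92b at 1% in the authors' deposited table, miR-18a and miR-92b between the doses with Ncode_Control scaling and scaled to empty spots, and miR-18b* between the doses with the upper pair. At 1% ethanol, miR-92b was 0.083 with quantiles over zebrafish spots alone, 0.35 with ignored spots kept, 0.31 with the median over spots, 0.12 in the authors' deposited table and 0.32 with the upper pair. miR-18b* was -0.02 with ignored spots kept, -0.021 with the median and -0.21 scaled to empty spots. miR-18a was -0.093 with slide as a block and -0.11 scaled to empty spots, where miR-19a was -0.21. At 1.5% ethanol, miR-19a was 0.10 with 75th percentile scaling, 0.20 with cyclic loess, 0.34 with Ncode_Control scaling, 0.11 with ignored spots kept, 0.41 in the authors' deposited table, 0.015 with the upper pair and 0.17 scaled to empty spots. miR-18a was 0.038 with cyclic loess, 0.22 with Ncode_Control scaling, 0.16 with ignored spots kept, 0.25 with the median, 0.35 in the authors' deposited table, 0.28 with the upper pair and 0.048 scaled to empty spots. miR-92b was 0.36 with ignored spots kept, 0.047 with the median and 0.089 with the upper pair. Between the doses, miR-19a was 0.026 with 75th percentile scaling, 0.025 with cyclic loess, 0.24 with Ncode_Control scaling, 0.08 with ignored spots kept and 0.38 scaled to empty spots. miR-18a was 0.025 with Ncode_Control scaling, 0.025 with the median, 0.064 with the upper pair and 0.16 scaled to empty spots. miR-92b was 0.059, 0.013 and 0.19 with Ncode_Control scaling, ignored spots kept and scaling to empty spots, and miR-18b* was -0.016 with the upper pair.

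With 1 array left out, where the lone array is assumed to vary like the other groups, the 1% values ran from 0.07 to 0.40 for miR-19a, -0.015 to 0.41 for miR-18a, -0.44 to 0.27 for miR-92b and -0.19 to 0.42 for miR-18b*. At 1.5% they ran from -0.31 to 0.29, -0.30 to 0.26, -0.58 to -0.21 and 0.08 to 0.68 in the same order. Between the doses they ran from -0.55 to 0.054, -0.50 to 0.057, -0.67 to 0.045 and 0.13 to 0.40. For a comparison of 2 groups, leaving out an array of the group not compared gave the same fit as using only those 2 groups. The alternatives counted are therefore not all separate checks. The shared replicate numbers were also fitted as a block. With each group's mean subtracted, same-numbered arrays of control and 1% ethanol had a correlation of -0.0307 over 243 probes. It was 0.265 for control and 1.5% ethanol and -0.0381 for the 2 doses. Whether the numbers mark pairs was not tested. The replicate block left 0 of 10 members past the threshold. Each number occurs once in every group, so this block cannot move a difference (miR-19a at 1% is 0.23 by construction) and only its error changes. The same holds for a block of upper or lower position on the slide, since each position also occurs once in every group. With the lower pair of spots, miR-92b had no usable spot on control replicate 1. Signal over background limits 6 of the 10 members, which were not above the empty spots on all arrays.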

Other observations

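Another 10 zebrafish probes carry names of the wider families, given here as values. These are star strands (miR-17a*, miR-19a*, miR-19b*, miR-20a*) and miRNAs of the same families from other hairpins (miR-18c, miR-19c, miR-19d, miR-25, miR-93, miR-363). On all 6 arrays 0 of 10 were above the empty spots, miR-19c was on 1 array, and 9 were on none. Of their 210 usable spots 8 lay over the limit, beside 92 of 222 for the members. Among all 243 zebrafish probes, 28 (11.5%) were above on all 6 arrays and 159 on none. The share of spots over the limit was not counted for all probes. By limma 0 of 10 passed against control at either dose, beside 0.412% of all probes at 1% and 0% at 1.5%. At an unadjusted p under 0.05 it was 0 of 10 at 1%, beside 6.17%, and 0 of 10 at 1.5%, beside 4.94%. The differences ran from -0.22 to 0.39 at 1% and from -0.19 to 0.20 at 1.5% ethanol. Between the doses 0 of 10 passed, beside 0% of all probes. An unadjusted p under 0.05 was reached by 1 of 10, beside 7.41% of all probes. That was miR-19a*, singled out after its values were seen, at 7.78 and 7.39 with 1% ethanol and 7.04 and 7.04 with 1.5% (difference -0.55, limma adjusted p = 0.509), on arrays where it was not above the empty spots. Its 1% arrays each held 1 bright spot, at 601 and 500, beside others of 110 to 140.

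Probes named only for other species carry the same miRNA numbers, and 13 of them were read without a test, since their sequences were not compared with those of zebrafish. On no array were 11 of the 13 above the empty spots, and these included the probes headed hsa-miR-17-5p, hsa-miR-17-3p, hsa-miR-18a* and hsa-miR-92. Beside them, 159 of the 243 zebrafish probes were above on no array. The same count was not made for all other-species probes. Above on all 6 arrays was 1 of the 13 (7.69%), beside 13.2% of all 835 other-species probes. The rat probe rno-miR-20a* was above on all 6 arrays, although the zebrafish miR-20a* probe was above on none. Its spots read 676 to 742 and 442 to 500 in control, 544 to 665 and 547 to 714 at 1%, and 537 to 673 and 437 to 487 at 1.5% ethanol, and these raw ranges overlapped between groups. Normalised log2 values were 9.15 and 9.06 in control, 9.17 and 9.28 at 1%, and 9.05 and 9.05 at 1.5% ethanol, so both 1% arrays lay above both controls and both 1.5% arrays just below. Among all zebrafish probes, 20.6% had both 1% arrays above both controls and 17.3% had both 1.5% arrays below. The differences of 0.12 and -0.06 for rno-miR-20a* were not tested.

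The probe headed gga-miR-18b, with chicken, human and cow names, was above the empty spots on 5 of 6 arrays, while the zebrafish miR-18b probe was above on none. Its spots read 1234 to 1723 and 860 to 918 in control and 1117 to 1428 on 1% ethanol replicate 2. On 1% ethanol replicate 1 all 4 spots read 98 to 142, near the median of 104 of the empty spots there. At 1.5% ethanol they read 829 to 1234 on replicate 1, and 1184, 1113, 206 and 267 on replicate 2. The log2 difference was -1.48 at 1% ethanol, where replicate 1 was at 6.84 and replicate 2 at 10.27, and -0.58 at 1.5%, where replicate 2 held the spots at 206 and 267.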
